A study of Mus musculus with 15 samples.

Results

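The results concern 34 genes of blood vessels and of the cells that wrap them, described in newborn pituitaries that carry or lack a working Pit1. The genes were listed by name: ligands that drive vessel growth, their receptors, genes of the endothelial surface and junctions, endothelial transcription factors, and genes of pericytes and smooth muscle. Each was read from the probe set of its symbol with the highest mean over all 15 arrays. All 34 were measured, among 18193 genes with at least 1 probe set named for a single gene. The rule lists them by symbol, but they were chosen with earlier results of these data known.

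Whole pituitary RNA of newborn mice, at postnatal day 1, was pooled and hybridised to Affymetrix Mouse Genome 430 2.0 arrays, 1 array for each pool. The groups were Pit1 +/+ and Pit1 dw/dw, with 5 pools each, both on the DW/J strain. Pit1 is a POU-homeodomain factor that growth hormone, prolactin and thyrotropin cells need, and the dw allele is that of the Snell dwarf mouse. Mice of both groups were on high fat chow according to the labels, and no other treatment was given. The labels state neither the number of pituitaries in a pool nor their sex.

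Blood vessels grow when endothelial cells, which line them, receive vascular endothelial growth factors. Vegfa acts mainly through the receptor Kdr, while Flt1 binds Vegfa and acts largely as a decoy, and Vegfc acts through Flt4 and is best known for lymphatic growth. Angiopoietins act through Tek and settle vessels, and Pdgfb from endothelium recruits pericytes that carry Pdgfrb. The pituitary is supplied by a portal system whose fenestrated capillaries let hormones pass into the blood, and Plvap forms the diaphragms that span such fenestrae.

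Vegfc had the smallest adjusted p of the 34 genes, though it did not pass the test, and Flt4 is its receptor. The start regions of this pair are shown so that both can be read side by side. They come from RefSeq, build GRCm38.p6, and hold the 250 bases before the annotated start, on the plus strand, at chr8:54077282-54077531 for Vegfc and chr11:49609429-49609678 for Flt4. Capitals mark the GC box, GGGCGG on either strand, the letters that Sp-family factors recognise.
Vegfc: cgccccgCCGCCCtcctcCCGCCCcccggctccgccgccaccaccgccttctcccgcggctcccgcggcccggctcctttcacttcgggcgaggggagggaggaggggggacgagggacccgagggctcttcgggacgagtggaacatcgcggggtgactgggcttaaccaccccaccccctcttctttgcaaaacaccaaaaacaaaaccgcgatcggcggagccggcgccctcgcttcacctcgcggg
Flt4: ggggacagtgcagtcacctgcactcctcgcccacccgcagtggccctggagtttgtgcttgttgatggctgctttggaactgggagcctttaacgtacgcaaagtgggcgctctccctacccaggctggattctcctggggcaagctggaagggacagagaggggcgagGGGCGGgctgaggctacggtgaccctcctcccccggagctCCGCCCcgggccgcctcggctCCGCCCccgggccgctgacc

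Both regions were rich in G and C, at 71.6% for Vegfc and 68.4% for Flt4, against a median of 52.4% over the 32851 promoters of the table. The Vegfc region held 2 GC boxes and the Flt4 region 3. Of the 34 genes, 19 had a promoter in the table, 24 promoters in all, with a median G and C content of 60.0%. The GC box stood in 13 of these 24 promoters (54.2%) and in 32.7% of all promoters of the same length. The octamer ATGCAAAT, bound by POU factors, the class of Pit1, was in 0 of 24 and in 1.6% of all. The ETS site CCGGAAG and the E-box CACGTG were also in 0 of 24, against 6.91% and 6.02% of all promoters. The core CTTTGT of SOX and TCF factors was in 16.7% of the 24 and 16.5% of all. The hypoxia core ACGTG was in 4.17% and 16.6%, where an E-box also counts as a hit of the hypoxia core. All motifs were sought on both strands. These matches describe the letters of 250 bases and say nothing of binding.

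The hormone genes followed the labels. Growth hormone (Gh) lay between 14.15 and 14.28 in the Pit1 +/+ pools and between 7.15 and 10.31 in the Pit1 dw/dw pools, on the log2 scale of the arrays, and Tshb, the thyrotropin beta subunit, between 11.67 and 12.29 against 6.20 to 7.01. Pit1 itself (Pou1f1) has no probe set named for it alone in the annotation used, so the targeted gene was not analysed here. Pool 1 of Pit1 +/+ has a title, source and strain of Pit1 +/+ but a genotype label that differs from them, and its Gh value of 14.22 lay with the other Pit1 +/+ pools. Neuronal Prph was above 7 in 3 pools, Pit1 +/+ pool 3 and Pit1 dw/dw pools 2 and 3, and at most 3.78 in the others. The interquartile range was under 3.5 on 2 arrays, Pit1 +/+ pool 5 and Pit1 dw/dw pool 1.

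In Pit1 dw/dw against Pit1 +/+, none of the 34 genes passed the test, limma with Benjamini-Hochberg adjustment over 18193 genes and a threshold of 0.05. Of all genes, 0.77% passed. The smallest adjusted p was 0.279 in limma, for Vegfc, and 5 of 34 (14.7%) had an unadjusted p under 0.05, against 8.46% of all genes: Vegfc, Angpt1, Kdr, Emcn and Nos3. In 0 of 34 were the pools of both groups apart, against 2.78% of all genes. The changes ran from -0.66 for Vegfc to 0.48 for Kdr on the log2 scale. The median change of the 34 genes was 0.14, with 22 (64.7%) above 0, and that of all genes was -0.02, with 45.2% above 0. The median rested on single pools, at 0.00 without Pit1 +/+ pool 2 and 0.01 without Pit1 +/+ pool 5, it was -0.03 with array weights, and it was 0.28 without the pools with Prph above 7. With averages of other genes as covariates it was -0.004 (further endothelial genes), 0.09 (mesenchyme) and 0.09 (ganglion and bone). For 15 of the 34 genes the change turned sign when 1 of the 10 pools was left out. By role, the median was 0.21 over 7 ligands, which is the value of the faint Pdgfb, 0.15 over 10 receptors and co-receptors, -0.03 over 9 endothelial surface, junction and secreted genes, 0.03 over 4 endothelial transcription factors and 0.08 over 4 pericyte and smooth muscle genes. The 95% interval of a gene's change reached 0.46 on either side at the median of the 34.

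**Figure D1:**
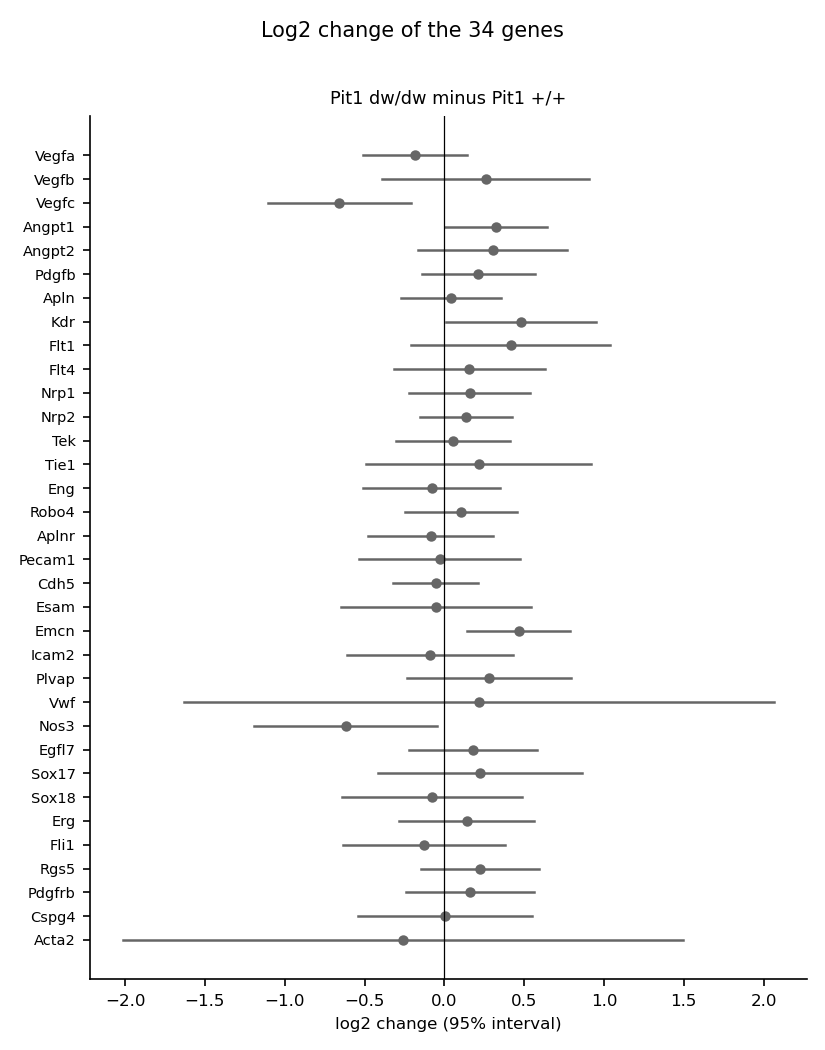
Log2 change of each of the 34 genes in Pit1 dw/dw against Pit1 +/+ (x axis, log2 units), with the point at the estimate from 5 pools a group and the line at its 95% interval. Vegfc and Nos3 lie farthest left, at -0.66 and -0.62, Kdr and Emcn farthest right, at 0.48 and 0.47, and Vwf and Acta2 have the widest intervals; no gene passed the test after adjustment.

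Because these are bulk samples, fewer vessel cells and less RNA per vessel cell cannot be told apart. The mean level of 30 further endothelial genes ran from 6.74 to 7.35 in Pit1 +/+ and from 7.01 to 7.53 in Pit1 dw/dw, so the groups overlapped. So did the averages of mesenchyme, bone, macrophage and ganglion genes, while those of pituitary endocrine and progenitor genes did not. The 11 mesenchyme and fibroblast genes averaged 8.71 to 9.73 in Pit1 +/+ and 9.06 to 9.59 in Pit1 dw/dw, the 6 measured bone and cartilage genes 4.52 to 7.0 and 5.48 to 7.21, and the 8 macrophage genes 6.17 to 7.15 and 6.38 to 7.32. The median change of the mesenchyme genes was 0.25, with 10 of 11 (90.9%) above 0 and 1 below it, at -1.80. An estimate above 0 was thus not particular to the vessel genes. The median was -0.06 over the bone and cartilage genes and -0.01 over the macrophage genes. The 9 measured ganglion and Schwann cell genes averaged 5.35 to 9.83 and 5.76 to 9.19, and were highest in pool 3 of either group, as Prph was. The 10 measured pituitary endocrine and progenitor genes, Gh and Tshb among them, averaged 9.54 to 10.25 in Pit1 +/+ and 7.97 to 9.02 in Pit1 dw/dw. Of these 10, 3 passed in limma (Gh, Tshb and Prl, at -5.40, -5.13 and -1.25), against 0.77% of all genes, and 7 did not. Of the 7, Pomc (0.19) was higher in every Pit1 dw/dw pool than in any Pit1 +/+ pool. Cga (-0.55) had an unadjusted p of 0.026 and an adjusted p of 0.482 in limma. For Cga, Fshb (-0.70), Lhb (-0.08), Sox2 (-0.05), Lhx3 (0.25) and Pitx1 (0.14) the groups overlapped. The 9 measured genes of S phase and mitosis averaged 8.38 to 8.84 and 7.96 to 8.41, so the groups overlapped here too. Of their estimates 9 of 9 lay below 0, where 45.2% of all genes lay above it. These signs come from the same 10 pools and are not separate observations. None of the 9 genes passed the test in limma, where 3 (33.3%) had an unadjusted p under 0.05, against 8.46% of all genes. The part of this tissue content in the vessel genes' differences was not tested beyond the mesenchyme, endothelial, ganglion and bone covariates.

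Vegfc, the ligand of Flt4, gave the lowest change of the 34 genes. In Pit1 +/+ its log2 signal was 8.05, 8.09, 8.27, 8.21 and 7.57 in pools 1 to 5. In Pit1 dw/dw it was 7.57, 7.18, 7.32, 7.66 and 7.18. Pools 1 to 4 of Pit1 +/+ lay above every Pit1 dw/dw pool, and the groups met through Pit1 +/+ pool 5, which lay below Pit1 dw/dw pool 4. The mean was 8.04 ± 0.28 (SD, n = 5) in Pit1 +/+ and 7.38 ± 0.22 (SD, n = 5) in Pit1 dw/dw, a 1.58-fold difference. The log2 change was -0.66 (SE 0.21, 95% interval -1.11 to -0.21), with an adjusted p of 0.279 in limma. The change was below 0 in all 26 alternatives tried, from -0.83 to -0.32, and passed the test in 1 of them, array weights, at -0.74 (adjusted p 0.0367 in limma). Some alternatives, such as the variance prior, cannot move the estimate, and others only drop 1 pool. The shared sign is therefore not separate support. Over all alternatives the adjusted p ran from 0.0367 to 0.708 in limma.

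Vegfc has 3 probe sets, and they gave unlike differences. The one read above is 1439766_x_at, whose suffix marks probes shared with other sequences. Probe set 1419417_at was 7.6, 7.87, 7.34, 7.91 and 7.49 in Pit1 +/+ and 7.26, 7.11, 7.20, 7.49 and 7.53 in Pit1 dw/dw, a difference of -0.32 (95% interval -0.72 to 0.07). Probe set 1440739_at ran from 6.83 to 7.57 in Pit1 +/+ and from 6.51 to 7.70 in Pit1 dw/dw, a difference of -0.05 (95% interval -0.59 to 0.50). All 3 estimates were below 0 and only the brightest probe set had an interval that left out 0. Over all single probe sets of the array, 0.371% passed, and 0 of the 66 probe sets of the 34 genes did so in limma.

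Vegfa, the main growth signal of blood endothelium, was 6.40, 6.83, 6.62, 6.54 and 7.08 in Pit1 +/+ and 6.59, 6.79, 6.29, 6.47 and 6.42 in Pit1 dw/dw. The groups overlapped, and the difference was -0.18 (95% interval -0.51 to 0.14). Vegfb, a ligand of Flt1, was 4.89 in Pit1 +/+ pool 5 and 6.15 to 6.58 in the other pools of that group, against 6.04 to 6.50 in Pit1 dw/dw. That low pool widened its interval, -0.39 to 0.91.

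Angpt1, which activates Tek, was 7.37, 7.02, 6.99, 7.39 and 6.74 in Pit1 +/+ and 7.6, 7.38, 7.15, 7.58 and 7.42 in Pit1 dw/dw. Pools 1, 4 and 5 of Pit1 dw/dw lay above all Pit1 +/+ pools, and pools 2 and 3 lay among them. The difference was 0.32 (95% interval 0.00 to 0.65, adjusted p 0.586 in limma). Angpt2, which opposes Angpt1 in many settings, was 6.62, 6.09, 6.55, 6.68 and 5.66 in Pit1 +/+ and 6.89, 6.09, 6.53, 7.02 and 6.59 in Pit1 dw/dw, a difference of 0.30 (95% interval -0.16 to 0.77). Pdgfb, the pericyte recruiter, and Apln, the apelin peptide, gave faint signals, below the median of all values (4.37) on 10 and 8 of 10 arrays. Little can be read from their differences of 0.21 and 0.04.

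**Figure D2:**
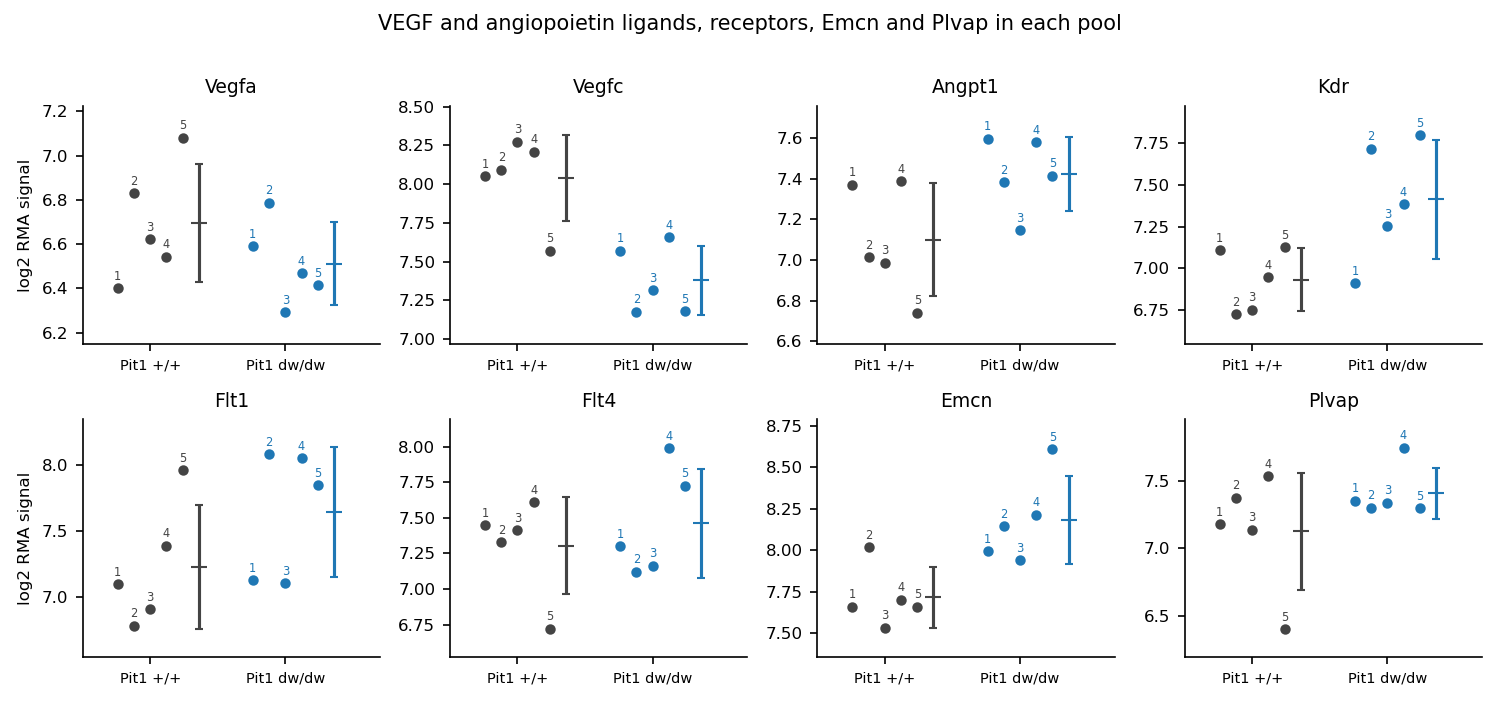
Log2 RMA signal of Vegfa, Vegfc, Angpt1, Kdr, Flt1, Flt4, Emcn and Plvap in each pool (numbered points) of Pit1 +/+ and Pit1 dw/dw, with the mean and SD of 5 pools beside them. Vegfc runs from 7.57 to 8.27 in Pit1 +/+ and from 7.18 to 7.66 in Pit1 dw/dw, and the groups overlap in all 8 genes.

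Among the receptors, Kdr, which carries the Vegfa signal in endothelium, was 7.11, 6.73, 6.75, 6.95 and 7.13 in Pit1 +/+ and 6.91, 7.71, 7.25, 7.38 and 7.79 in Pit1 dw/dw. Pools 2 to 5 of Pit1 dw/dw lay above all Pit1 +/+ pools, and pool 1, one of the arrays with a narrow interquartile range, lay among them. The difference was 0.48 (95% interval 0.01 to 0.95, adjusted p 0.582 in limma), and it was above 0 in all 26 alternatives, from 0.38 to 0.65. Several of these cannot move the estimate or reuse most of the same pools, so the shared sign is not separate support. The adjusted p of Kdr ran from 0.0791 to 0.903 in limma over these alternatives. The lowest came without the 2 arrays of narrow interquartile range, an alternative chosen after the data were seen that takes out Pit1 dw/dw pool 1.

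Flt1, the other receptor of Vegfa, was 7.09, 6.78, 6.91, 7.39 and 7.96 in Pit1 +/+ and 7.12, 8.08, 7.11, 8.05 and 7.85 in Pit1 dw/dw. The groups overlapped widely, and the difference was 0.42 (95% interval -0.21 to 1.04) by its brightest probe set. Its other probe sets gave 0.14, 0.12 and 0.02, and the mean of all gave 0.17. Flt4, the Vegfc receptor, was 7.45, 7.33, 7.41, 7.61 and 6.72 in Pit1 +/+ and 7.30, 7.12, 7.16, 7.99 and 7.73 in Pit1 dw/dw, a difference of 0.16 (95% interval -0.32 to 0.63), or 0.01 without Pit1 +/+ pool 5. Its other probe set, 1421442_at, ran from 6.0 to 6.44 in Pit1 +/+ and from 6.09 to 6.86 in Pit1 dw/dw, a difference of 0.34 (95% interval 0.01 to 0.67, adjusted p 0.681 in limma). Neither probe set passed.

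Nrp1, a co-receptor of Vegfa and of semaphorins, was 10.25, 9.58, 10.53, 10.55 and 10.38 in Pit1 +/+ and 10.49, 10.11, 10.28, 10.50 and 10.69 in Pit1 dw/dw. The difference was 0.16 (95% interval -0.22 to 0.54) by this probe set, 1448944_at, or -0.01 without Pit1 +/+ pool 2. Its others gave 0.34 (1418084_at), -0.01 (1448943_at) and -0.12 (1457198_at), each with an interval that held 0. Nrp2, the co-receptor that also binds Vegfc, was 9.21, 9.08, 9.20, 9.30 and 8.72 against 9.02, 9.23, 9.45, 9.22 and 9.26, a difference of 0.13 (95% interval -0.16 to 0.42).

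**Figure D3:**
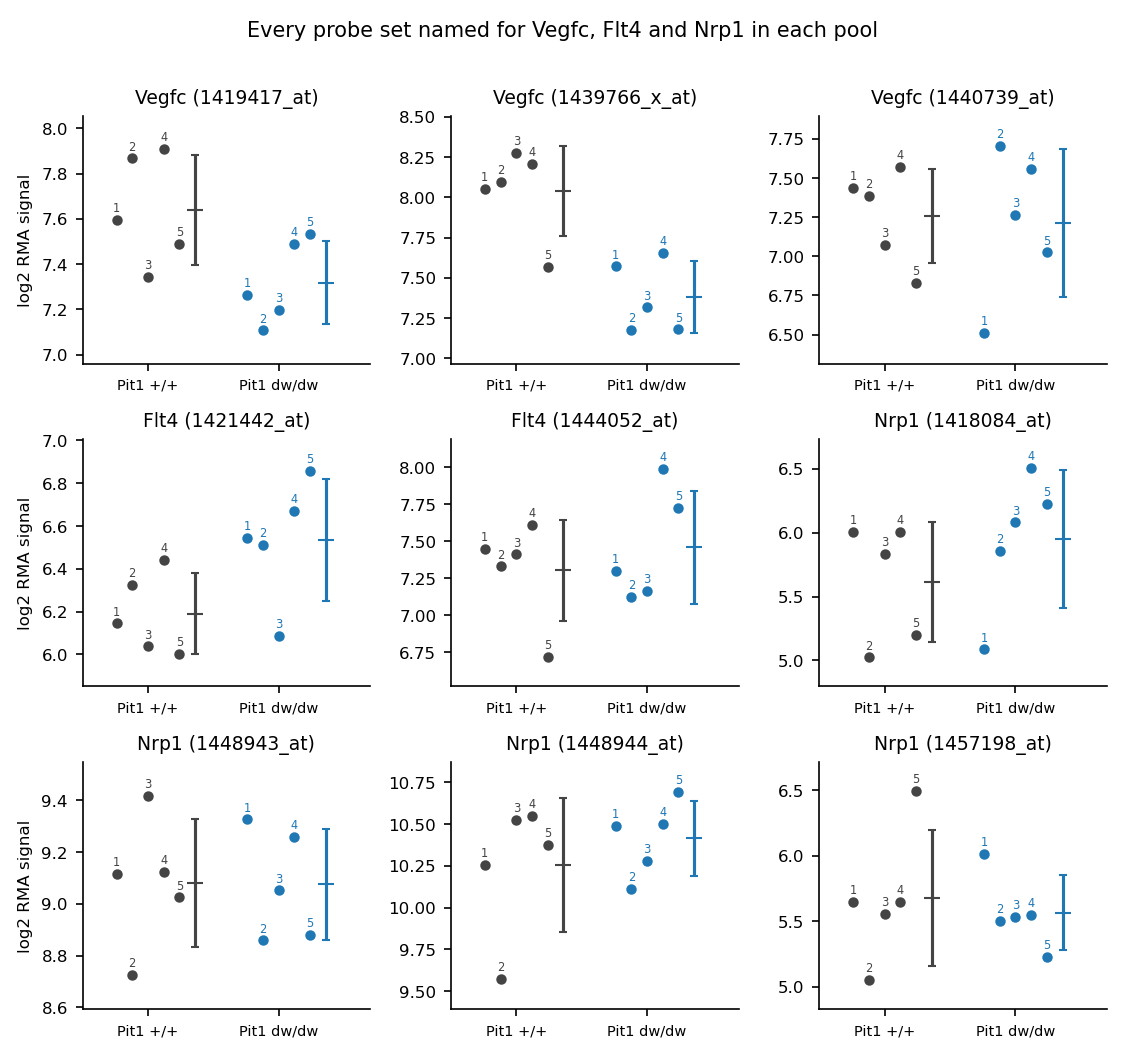
Log2 RMA signal of every probe set named for Vegfc, Flt4 and Nrp1, 1 panel each, in each pool (numbered points), with the mean and SD of 5 pools. The Vegfc panels show differences of -0.66, -0.32 and -0.05 between the group means, and the groups overlap in each panel.

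Tek, the angiopoietin receptor, was 9.62, 9.15, 9.50, 9.71 and 9.50 in Pit1 +/+ and 9.74, 9.24, 9.45, 9.77 and 9.54 in Pit1 dw/dw. The groups covered nearly the same range, with pool 2 lowest in both, and the difference was 0.06 (95% interval -0.30 to 0.41). Tie1, the orphan partner of Tek, was 6.83, 6.13, 6.66, 7.36 and 5.08 in Pit1 +/+ and 6.36, 6.28, 6.76, 6.94 and 6.80 in Pit1 dw/dw. The Pit1 dw/dw pools lay inside the Pit1 +/+ range, and the difference was 0.22 (95% interval -0.49 to 0.92).

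Eng, a TGF-beta co-receptor of endothelium, ran from 6.01 to 7.15 in Pit1 +/+ and from 6.18 to 6.73 in Pit1 dw/dw, a difference of -0.08 (95% interval -0.51 to 0.35). Robo4, which stabilises vessels, ran from 7.38 to 8.25 and from 7.46 to 8.11, a difference of 0.10 (95% interval -0.25 to 0.46). For both genes the Pit1 dw/dw pools lay within the Pit1 +/+ range. Aplnr, the apelin receptor, ran from 10.14 to 10.92 in Pit1 +/+ and from 10.26 to 10.99 in Pit1 dw/dw, a difference of -0.09 (95% interval -0.48 to 0.30).

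Among surface and junction genes, Emcn, endomucin of veins and capillaries, gave the highest estimate. It was 7.66, 8.02, 7.53, 7.70 and 7.66 in Pit1 +/+ and 8.0, 8.15, 7.94, 8.21 and 8.61 in Pit1 dw/dw. All Pit1 dw/dw pools lay above 4 of the Pit1 +/+ pools, and the overlap came from Pit1 +/+ pool 2. The means were 7.72 ± 0.18 (SD, n = 5) and 8.18 ± 0.26 (SD, n = 5), a difference of 0.47 (95% interval 0.14 to 0.79) with an adjusted p of 0.296 in limma. The difference was above 0 in all 25 alternatives that kept its probe set, from 0.36 to 0.54, and passed in 0 of them, with adjusted p from 0.0661 to 0.651 in limma. As for Vegfc and Kdr, several of these cannot move the estimate, so the shared sign is not separate support.

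Plvap, the diaphragm protein of fenestrated capillaries, was 7.18, 7.38, 7.14, 7.53 and 6.40 in Pit1 +/+ and 7.36, 7.30, 7.34, 7.75 and 7.30 in Pit1 dw/dw. Pit1 +/+ pool 5 was low, and the other Pit1 +/+ pools overlapped Pit1 dw/dw. The difference was 0.28 (95% interval -0.23 to 0.79, adjusted p 0.858 in limma), or 0.10 without Pit1 +/+ pool 5. Pecam1, the adhesion molecule of endothelial borders, was 5.06, 4.75, 4.62, 4.71 and 5.23 against 4.93, 4.47, 4.79, 5.06 and 4.95, a difference of -0.03 (95% interval -0.53 to 0.47).

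Nos3, the endothelial nitric oxide synthase, was 4.53, 3.35, 4.61, 4.70 and 3.77 in Pit1 +/+ and 3.17, 3.13, 3.78, 4.12 and 3.66 in Pit1 dw/dw. These signals are faint, below the overall median on 7 of 10 arrays, and the only pools above it were Pit1 +/+ pools 1, 3 and 4. The difference was -0.62 (95% interval -1.19 to -0.04, adjusted p 0.535 in limma). It passed in 2 of 25 alternatives, with the mesenchyme average as a covariate (-0.69, adjusted p 0.0158 in limma) and with the further endothelial average as a covariate (-0.83, adjusted p 0.0185 in limma), and its adjusted p ran up to 0.902. Cdh5, the VE-cadherin of adherens junctions, was below the overall median on 10 of 10 arrays, with a difference of -0.06.

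Esam, an adhesion molecule of endothelial junctions, ran from 5.53 to 6.15 in Pit1 +/+ and from 5.49 to 6.33 in Pit1 dw/dw, a difference of -0.05 (95% interval -0.65 to 0.54). Icam2, which leukocytes bind, ran from 5.87 to 6.94 and from 5.76 to 6.64, a difference of -0.09 (95% interval -0.61 to 0.43). Egfl7, a secreted factor of vessel tube formation, ran from 6.78 to 7.99 and from 7.29 to 7.76, a difference of 0.18 (95% interval -0.22 to 0.58). That is probe set 1451428_x_at, with probes shared with other sequences, and the other Egfl7 probe sets gave -0.10, 0.02 and 0.13. The groups overlapped in all 3 genes.

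Vwf, the clotting factor carrier of endothelium, was 9.09, 3.74, 9.39, 8.67 and 6.28 in Pit1 +/+ and 7.83, 6.40, 7.88, 8.70 and 7.45 in Pit1 dw/dw. The Pit1 +/+ pools spread over 5.65 log2 units, an SD of 2.40, and pool 2 was low in both groups. The difference was 0.22 (95% interval -1.63 to 2.07), or -0.71 without Pit1 +/+ pool 2, so neither its direction nor its size could be read.

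The endothelial transcription factors gave no call. Sox17, which acts in arterial endothelium, was 7.56, 6.58, 7.94, 7.63 and 7.31 in Pit1 +/+ and 7.88, 7.54, 7.43, 8.09 and 7.20 in Pit1 dw/dw, a difference of 0.22 (95% interval -0.42 to 0.86). This probe set is 1429177_x_at, whose suffix marks probes shared with other sequences. The other Sox17 probe set, 1421657_a_at, was faint and went the other way, at -0.23 (95% interval -0.44 to -0.03, adjusted p 0.618 in limma). The ETS factor Erg ran from 5.05 to 5.82 and from 5.33 to 5.98, a difference of 0.14 (95% interval -0.28 to 0.56). Its relative Fli1, which blood cells also express, ran from 5.55 to 6.49 and from 5.56 to 6.16, a difference of -0.13 (95% interval -0.63 to 0.38). In these genes the groups overlapped for most pools. Sox18 was below the overall median on 10 of 10 arrays, with a difference of -0.08.

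The pericyte genes overlapped between groups too. Rgs5, a regulator of G protein signalling that marks pericytes, was 8.55, 8.13, 8.63, 8.53 and 8.10 in Pit1 +/+ and 8.66, 8.39, 8.34, 8.94 and 8.71 in Pit1 dw/dw, a difference of 0.22 (95% interval -0.15 to 0.59). Pdgfrb, the Pdgfb receptor of pericytes, was 7.92, 7.71, 7.98, 7.87 and 7.93 against 7.85, 8.05, 8.07, 8.24 and 8.0, a difference of 0.16 (95% interval -0.24 to 0.56). Both had small spreads, with an SD of at most 0.25 in either group.

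Cspg4, the NG2 proteoglycan of pericytes, ran from 4.69 to 6.05 in Pit1 +/+ and from 5.01 to 5.65 in Pit1 dw/dw, a difference of 0.00 (95% interval -0.54 to 0.55). Acta2, smooth muscle actin, was 9.35, 5.40, 10.02, 9.82 and 9.58 in Pit1 +/+ and 9.16, 7.40, 8.91, 9.42 and 7.97 in Pit1 dw/dw. Pool 2 was the lowest in both groups. The difference was -0.26 (95% interval -2.01 to 1.49), or -1.12 without Pit1 +/+ pool 2 (adjusted p 0.743 in limma), so that a single pool set its size.

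**Figure D4:**
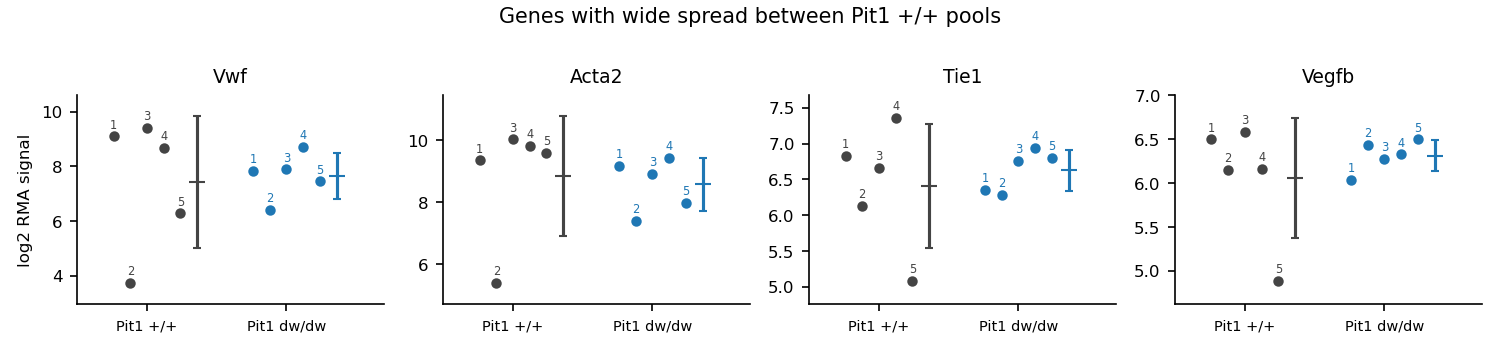
Log2 RMA signal of Vwf, Acta2, Tie1 and Vegfb in each pool (numbered points) of Pit1 +/+ and Pit1 dw/dw, with the mean and SD of 5 pools. In Pit1 +/+ pool 2 is lowest for Vwf (3.74) and Acta2 (5.40) and pool 5 for Tie1 (5.08) and Vegfb (4.89), while the Pit1 dw/dw pools lie closer together.

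Pools moved together for many of the 34 genes. Pit1 +/+ pool 2 was the lowest pool of its group for 15 of 34 genes (44.1%) and pool 5 for 16 (47.1%), where these pools were lowest for 14.4% and 40.4% of all genes. Pit1 dw/dw pool 2 was lowest for 19 of 34 (55.9%), against 20.8% of all genes, and Pit1 dw/dw pool 4 was highest for 19 of 34 (55.9%), against 20.6%. The average over the 34 genes was 7.02, 6.36, 7.03, 7.07 and 6.53 in Pit1 +/+ and 6.89, 6.65, 6.80, 7.16 and 6.88 in Pit1 dw/dw. The average of the 30 further endothelial genes was lowest in the same pools, at 6.74 and 6.79 in Pit1 +/+ pools 2 and 5 and 7.01 in Pit1 dw/dw pool 2. So were the mesenchyme averages of Pit1 +/+ pools 2 and 5 (8.71 and 9.23) and Pit1 dw/dw pool 2 (9.06). The part of tissue content in this was not tested. The median SD over the 34 genes was 0.35 in Pit1 +/+ and 0.26 in Pit1 dw/dw, against 0.26 and 0.20 over all genes, a description with no test.

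**Figure D5:**
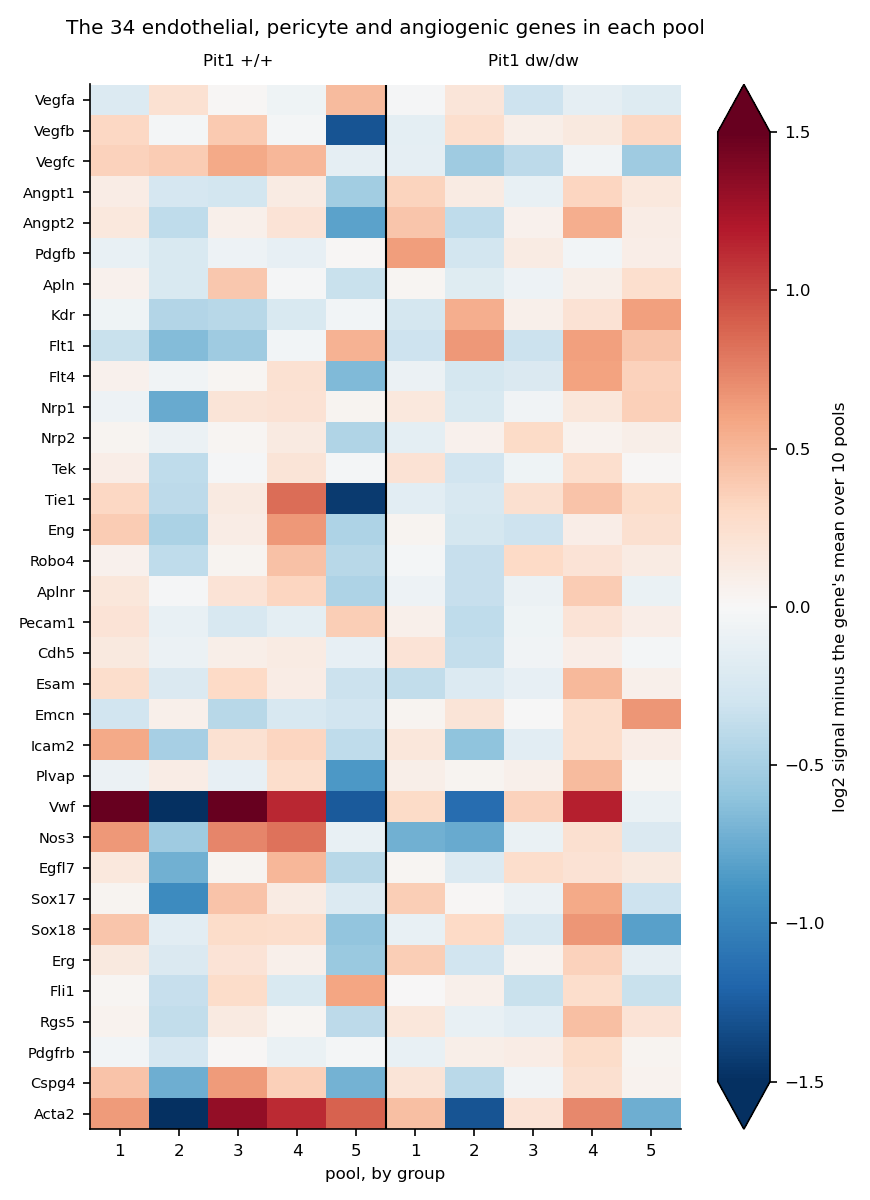
Log2 signal of each of the 34 genes (rows) in each of the 10 pools (columns, by group), minus the mean of that gene over these pools, with red above and blue below the mean and the scale ending at 1.5 in each direction. Pit1 +/+ pools 2 and 5 are blue for many genes, deepest for Vwf and Acta2 in pool 2, and Pit1 dw/dw pool 4 is red for most.

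Genes of the same systems outside the 34 were followed in 5 lists, and none of their genes passed in limma. Of 30 further endothelial genes 2 (6.67%) had an unadjusted p under 0.05, near the 8.46% of all genes, and 23 (76.7%) had an estimate above 0, where 45.2% of all genes did. Their median was 0.15. These 30 signs come from the same 10 pools and are not separate observations. The list average was 6.74 and 6.79 in Pit1 +/+ pools 2 and 5. It was 7.28 to 7.35 in the other Pit1 +/+ pools and 7.01 to 7.53 in Pit1 dw/dw, so the low pools bear on this share. Efnb2, the ephrin of arterial endothelium, was 8.93, 9.06, 8.84, 8.92 and 9.04 in Pit1 +/+ and 8.91, 8.69, 8.15, 8.77 and 8.59 in Pit1 dw/dw, a difference of -0.33 (adjusted p 0.51 in limma). Its highest values were in Pit1 +/+ pools 2 and 5, where the list average was lowest, so it did not follow that average. Cd34, a surface sialomucin of endothelium and blood stem cells, was 9.22, 8.58, 8.92, 9.17 and 8.62 against 9.28, 8.92, 9.26, 9.57 and 9.32, a difference of 0.37 (adjusted p 0.578 in limma). Hey1, a Notch target, and Esm1, a proteoglycan of sprouting tip cells that responds to VEGF, differed by 0.25 (95% interval -0.18 to 0.68) and 0.05 (95% interval -0.39 to 0.49).

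The lymphatic list, in which 3 of 4 genes were measured, had a median of 0.16. Pdpn, podoplanin of lymphatic endothelium and of several other cell types, was 10.56, 10.16, 10.18, 10.30 and 9.76 in Pit1 +/+ and 10.58, 10.47, 10.39, 10.61 and 10.50 in Pit1 dw/dw, a difference of 0.32 (adjusted p 0.405 in limma). The Pit1 dw/dw pools lay above all Pit1 +/+ pools but pool 1. Prox1, the master factor of lymphatic endothelium, which other cells express too, differed by -0.02 (95% interval -0.84 to 0.79), and Lyve1, a hyaluronan receptor of lymphatic endothelium and macrophages, by 0.16 (95% interval -0.55 to 0.88).

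Of 14 further pericyte and smooth muscle genes 1 (7.14%) had an unadjusted p under 0.05, near the share of all genes, and the median was -0.08. That gene was Cnn1, calponin of smooth muscle, which also had the lowest estimate of the list, -0.60 (adjusted p 0.562 in limma). It was 4.15, 2.87, 4.33, 4.24 and 3.04 in Pit1 +/+ and 3.32, 2.87, 3.15, 3.42 and 2.87 in Pit1 dw/dw, all of them faint. Estimates lay above 0 for 6 of the 14 genes and below 0 for 8. The highest was that of Vtn, 0.80 (adjusted p 0.853 in limma). Vtn ran from 4.64 to 9.07 in Pit1 +/+ and from 7.16 to 9.22 in Pit1 dw/dw, so the groups overlapped. Of 12 further angiogenic signals 1 (8.33%) had an unadjusted p under 0.05, again near the share of all genes, and the median was 0.15. Pgf, placental growth factor and a ligand of Flt1, was 7.17, 6.27, 6.60, 6.96 and 5.56 in Pit1 +/+ and 7.01, 6.69, 6.99, 7.30 and 7.36 in Pit1 dw/dw, a difference of 0.56 (adjusted p 0.513 in limma), with the lowest Pit1 +/+ value again in pool 5.

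Of 12 hypoxia response genes 0 passed in limma and 0 had an unadjusted p under 0.05. Their average level was 8.67 to 8.89 in Pit1 +/+ and 8.79 to 9.10 in Pit1 dw/dw, and the median change was 0.09. Of the 12 estimates 9 (75%) lay above 0, against 45.2% of all genes. The other 3 lay below it: Hif1a (-0.07), Arnt (-0.05) and Ankrd37 (-0.16). These signs come from the same 10 pools and are not separate observations. The list average was lowest in Pit1 +/+ pools 5 (8.67) and 2 (8.76). The 2 genes that follow had the highest estimates of the list. Slc2a1, the glucose transporter, was 11.41, 11.04, 11.41, 11.30 and 10.82 in Pit1 +/+ and 11.26, 12.12, 11.19, 11.90 and 11.49 in Pit1 dw/dw, a difference of 0.40 (95% interval -0.00 to 0.80). Epas1, the hypoxia factor most abundant in endothelium, was 9.70, 9.17, 9.69, 9.75 and 9.72 against 9.75, 9.88, 9.66, 10.15 and 9.97, a difference of 0.28 (95% interval -0.03 to 0.59). For both genes the groups overlapped.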

How the data were processed

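Values were taken from the deposited table of log2 signals that the authors made with RMA, per the submitters' processing notes; the version and settings of RMA were not stated. Per the labels' protocols, an Ambion RNAqueous Micro kit gave the RNA, and the targets carried biotin. Medians of the 10 arrays lay between 4.31 and 4.43, and no further normalization was applied. The number of arrays limits the precision. Of 45037 probe sets without controls, 34945 had 1 gene symbol in the platform annotation, 932 had several and 9160 had none; those with 1 gave 18193 genes, each read from its brightest probe set. Limma 3.58.1 in R 4.3.3 fitted group means to all 15 arrays of the series, with Benjamini-Hochberg adjustment over all genes and a threshold of 0.05; the other 5 arrays shared the estimate of the spread and the choice of probe set and are not reported here. A fold is 2 to the power of the log2 change. In simulated data of this size, for Pit1 dw/dw against Pit1 +/+ and 18193 genes, 73% of changes of 1 and 99% of changes of 2 on the log2 scale were recovered, with 4 false among 176 calls. The changed genes were drawn from all genes, the noise was independent between genes, and no change smaller than 1 was simulated. These rates therefore do not give the recovery for the 34 genes, whose spread was wider and whose pools moved together. The labels call the pools biological replicates; p-values measure the spread between them. Promoters came from RefSeq. The genes and lists were chosen with earlier results of these data known. All 34 genes are named, and from each list at most 4 genes past the threshold. No gene of the further endothelial, lymphatic, pericyte, angiogenic or hypoxia lists passed, while 3 of the pituitary list did. The list genes, hormone genes and Prph were named after their values were seen. Alternatives covered array weights, centring, normalization, the choice of probe sets, a filter on dim probe sets, the variance prior, the samples fitted, the replicate number as a block, tissue covariates and leaving out pools. Those on the interquartile range and the beta-actin 3' to 5' signal were added after the data were seen.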

Additional observations from a re-analysis of the deposited data

Results flagged for a closer look

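In 5 of 94 groups of 5 pools searched (5.32%), 1 pool lay far from the others by Dixon's test, and chance flags about 1 in 20 groups. Among the 34 genes it was 3 of 68 groups (4.41%). Vegfb was 4.89 in Pit1 +/+ pool 5, where the next pool was at 6.15. Plvap was 7.75 in Pit1 dw/dw pool 4, above the next at 7.36. Acta2 was 5.40 in Pit1 +/+ pool 2, where the next was at 9.35. Among list averages, the ganglion genes were at 9.83 in Pit1 +/+ pool 3 (next 5.87) and the bone and cartilage genes at 7.21 in Pit1 dw/dw pool 5 (next 5.92).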

How the results depend on the processing

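Each of the 34 changes was recomputed under up to 26 alternatives. Over all of them, 3 values gained the threshold: Vegfc with array weights, and Nos3 with the mesenchyme and the further endothelial average as covariates. The count of the 34 genes past the threshold, 0 as reported, was therefore 1 under each of these 3 settings and 0 under the others, and 0 whichever single pool was left out. The count over all genes, 140 as reported, was 571 with array weights, 219 with the interquartile range as a covariate and 51 without the Prph pools, which leaves fewer samples. Leaving out each pool in turn gave 83 to 161, with the low of 83 without Pit1 dw/dw pool 2 and the high of 161 without Pit1 +/+ pool 5. Counts under 94 also came without Pit1 +/+ pool 2 or 4 (86 each) and Pit1 dw/dw pool 4 or 5 (93 and 90). Fitting the 10 arrays alone gave 0 of 34 and 126 of all genes. The causes of the other shifts were not tested.

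The replicate numbers did not meet the criterion for pairing, every correlation of deviations over 0.1: 3 of 5 same-numbered pairs did, at 0.64, 0.36 and 0.21 for numbers 3, 2 and 4, against -0.20 and -0.16 for numbers 1 and 5, and 5 of 10 pools correlated best with their own number. With the replicate number as a block, the counts were 0 of 34 and 137 of all genes. Faint signals limit Pdgfb, Cdh5, Sox18, Apln and Nos3, and single pools limit Vwf, Acta2, Tie1, Vegfb, Nrp1, Flt4 and Plvap. The change also turned sign without a single pool for Cspg4, Pecam1, Esam, Apln, Tek, Eng, Icam2, Sox18, Cdh5 and Fli1.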
